A study of Drosophila melanogaster with 69 samples.

Results

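The genes Fas3, shg, arm, alpha-Cat, pyd, scrib, dlg1, cora, beta-Spec and Nrg, which build epithelial junctions and cell polarity, were followed in bulk RNA-seq of Drosophila melanogaster gonads. They were chosen by name, with earlier results of these data known, and matched by gene symbol. All 10 of 10 were present among the 17807 genes of every library. Testes and ovaries came from wild-type flies (Oregon R) and from the chinmoST strain at 6 adult ages between day 1 and day 11, every other day, and many pairs of gonads were pooled for each library. There were 18 libraries of wild-type testes, 18 of chinmoST testes, 15 of wild-type ovaries and 18 of chinmoST ovaries, with 3 libraries at each age except wild-type ovaries of days 1, 7 and 11, which had 2. The genotype label of both chinmoST tissues lists the third-chromosome alleles Sod1[X-39] and e[1] over the balancer TM3, Sb[1] Ser[1], which the wild-type labels do not carry. By these labels the strains differ in more than chinmo, and an effect of that background cannot be told apart from an effect of chinmo. The allele itself has not been mapped to a base change, and its known effect is the loss of the Chinmo protein in the somatic cyst lineage of the testis.

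In an epithelium, cells are held side by side by adherens junctions, in which the transmembrane cadherin binds its neighbour outside the cell and catenins inside it. Below these belts the septate junctions of insects seal the lateral membrane, and a scaffold of polarity proteins keeps apical and basolateral membrane apart. Follicle cells of the ovary are a columnar epithelium built in this way, whereas the cyst cells that wrap germ cells in the testis are thin and squamous. In ageing chinmoST testes the cyst lineage takes on a follicle-like form, which is the reason to ask how the genes of this machinery behave.

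The 10 genes lie on 5 chromosome arms. In dm6 coordinates Fas3 is at 2L:18320102-18393441, shg at 2R:21049654-21057197, cora at 2R:19229063-19243751, alpha-Cat at 3L:23318646-23338100, pyd at 3R:8827068-8931896 and scrib at 3R:26536350-26604051. On the X chromosome are arm at X:1891401-1900646, Nrg at X:8517373-8555170, dlg1 at X:11369665-11409776 and beta-Spec at X:17657372-17669371. All are protein-coding genes, and those coordinates span the whole gene, exons and introns. They range from shg, with 1 annotated transcript, to dlg1, with 21. Exons of arm, pyd and beta-Spec overlap exons of an antisense neighbour by 82, 212 and 164 bases, which is 2.3%, 1.34% and 2.08% of their exonic length. An annotated INE-1 transposable element covers 408 exonic bases of alpha-Cat, 11.7% of its exonic length. Strandedness was not given in the sources used here, so reads in those stretches cannot be assigned to a strand. No member had fewer than 869 or more than 118389 expected counts in any library, so counting error was small beside the spread between libraries.

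Library totals ran from 32462418 to 181988641 expected counts. The chinmo transcript itself was a weak check of the labels, because the allele acts in 1 lineage and the libraries hold whole gonads: at days 9 and 11 chinmo read 39.5 to 97.2 TPM in wild-type and 50.4 to 91.4 TPM in chinmoST testes (TPM, a level per transcript length that sums to the same total in every library). Its mean difference over all days was -0.25 on the log2 scale (edgeR, adjusted p = 0.039), under the fold of 1.5. The tissue labels fitted the marker genes, since 7 spermatid genes summed to at least 727 TPM in every testis and to at most 26.1 TPM in any ovary. Of the 69 libraries 13 held few counts of long genes, with r between -0.74 and -0.35 between gene length and a library's deviation from the others of its tissue. They were replicate 1 of wild-type testes at days 3, 5, 7 and 9, 1 chinmoST testis library of day 1, 5 wild-type ovary and 3 chinmoST ovary libraries. Most members read low in these libraries, arm in ovaries excepted, so results are given with and without them where they matter. All 9 chinmoST testis libraries of days 7 to 11 leaned the other way, with r of 0.23 to 0.35. Their median gene over 4000 nt lay 0.44 to 0.93 above the other testis libraries on the log2 scale. The 7 wild-type libraries of the same days that were not low for long genes lay between -0.14 and 0.

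In wild-type testes the members fell into tiers of expression. Over the 14 wild-type testis libraries that were not low for long genes, arm was highest, with a lowest value of 40.4, a median of 44.2 and a highest value of 49.7 TPM. No value of another member reached that range. A middle tier of alpha-Cat, beta-Spec, Fas3 and Nrg followed, with medians of 29.9, 26.9, 26.0 and 21.4 TPM. Neighbouring ranges in this tier overlapped, but that of Nrg, 18.85 to 24.7 TPM, lay below that of alpha-Cat, 25.6 to 35.1 TPM. Lower still were cora, pyd, shg and scrib, with medians of 12.9, 12.4, 11.8 and 11.3 TPM, which also overlapped. The scaffold gene dlg1 was lowest, at 5.85 to 9.86 TPM with a median of 6.91, and its range met only those of shg and scrib. In the 4 wild-type libraries low for long genes every member except arm fell below its range in the other 14, for example 1.89 to 4.0 TPM for dlg1, while arm read 26.4 to 41.2 TPM.

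In chinmoST testes all 10 genes were higher than in wild-type testes once the flies were old. At days 9 and 11 the TPM values of the 6 chinmoST libraries lay above those of all 6 wild-type libraries for every one of the 10, against a background of 37.2% of all genes tested. A gene was called at an adjusted p under 0.05 and a fold of at least 1.5 in edgeR (quasi-likelihood, Benjamini-Hochberg adjustment over all 14910 genes). By that rule 10 of 10 members were higher at days 9 and 11, where 34.1% of all genes were called higher and 31.4% lower. The median log2 difference was 1.26 over the members and 0.09 over all genes. In a bulk sample, more cells of a type and more RNA per cell cannot be told apart.

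**Figure D1:**
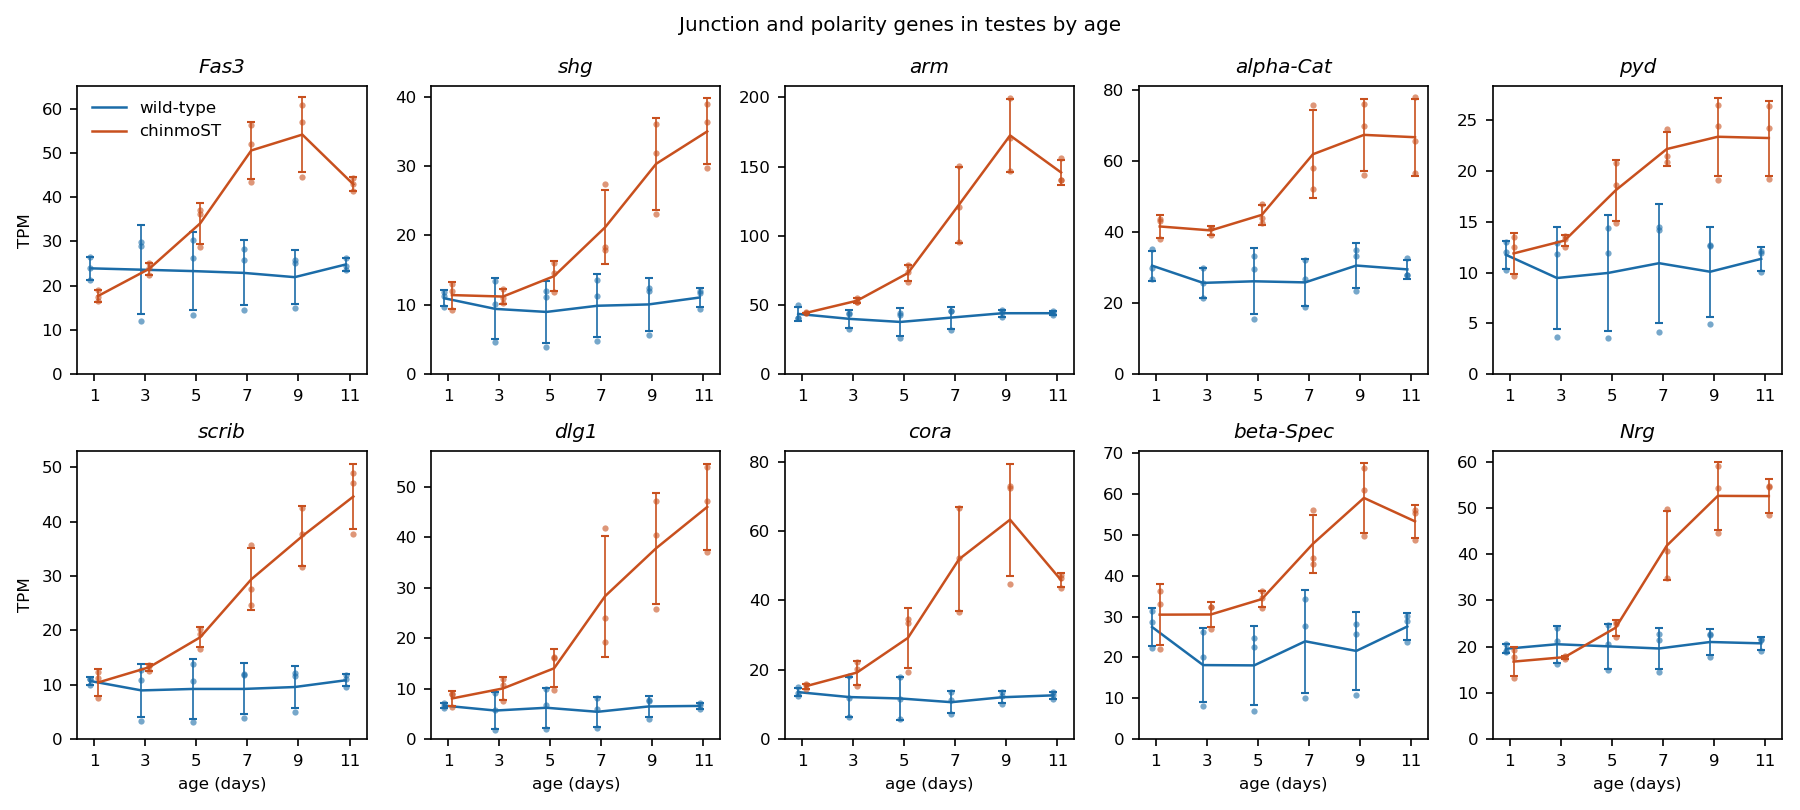
Level in TPM (vertical axes from 0) of each gene in testes by age in days, with 1 point per library, lines through the means and bars of 1 SD (n = 3 at each age and genotype). At days 9 and 11 every chinmoST point lies above every wild-type point, with arm at 147 to 199.5 TPM on day 9, and the low wild-type points at days 3 to 9 are the replicate 1 libraries low for long genes.

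The 3 core genes of the adherens junction rose together. For arm, the beta-catenin that binds the cadherin tail and also relays Wingless signals, the 6 wild-type libraries of days 9 and 11 had a lowest value of 41.2, a median of 44.5 and a highest of 46.3 TPM. The 6 chinmoST libraries had 140.3, 152 and 199.5 TPM, so that the groups stood far apart. The fold was 3.04 (log2 1.61, SE 0.11; edgeR, adjusted p = 2.53e-13). For shg, which encodes the cadherin itself, wild-type testes read 5.69, 11.9 and 12.4 TPM and chinmoST testes 23.1, 33.9 and 39.0 TPM. The fold was 2.64 (log2 1.40, SE 0.22; edgeR, adjusted p = 1.9e-06), and the lowest chinmoST library was above the highest wild-type one. For alpha-Cat, which couples the complex to actin, the values were 23.4, 30.3 and 35.1 TPM against 56.2, 67.8 and 78.0 TPM. Its fold of 1.90 (log2 0.93, SE 0.12; edgeR, adjusted p = 4.5e-08) was the smallest of the 3.

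On day 1 alpha-Cat read 26.8, 29.8 and 35.1 TPM in wild-type and 37.9, 43.2 and 43.7 TPM in chinmoST testes, and the fold of 1.49 was under the threshold (edgeR, adjusted p = 0.03). It was the 1 member of 10 with all 3 chinmoST libraries above all 3 wild-type ones on that day, about the share of all genes (7.77%). On the same day arm read 40.4 to 49.7 TPM in wild-type and 44.1 to 44.6 TPM in chinmoST libraries. It then read 51.9 to 55.1 TPM on day 3, 66.8 to 78.7 on day 5, 95.7 to 151 on day 7 and 147 to 199.5 on day 9 in chinmoST testes. For shg, chinmoST libraries read 11.8 to 16.0 TPM on day 5, the lowest of them within the wild-type range of 3.91 to 11.9 TPM, and 29.7 to 39.0 TPM on day 11.

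The junction scaffold gene pyd, related to the zonula occludens proteins of vertebrates, showed the lowest level of the 10 in old chinmoST testes. At days 9 and 11 wild-type libraries had a lowest value of 4.97, a median of 12.02 and a highest of 12.7 TPM. The chinmoST libraries had 19.1, 24.3 and 26.5 TPM. The fold was 1.92 (log2 0.94, SE 0.26; edgeR, adjusted p = 0.0019).

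Among the polarity genes the differences were larger. The dlg1 product is a membrane-associated guanylate kinase scaffold of the basolateral membrane and septate junction. It read 4.0, 6.91 and 7.76 TPM (lowest, median and highest) in the 6 wild-type libraries of days 9 and 11 and 25.8, 43.8 and 53.8 TPM in the 6 chinmoST libraries. With a fold of 4.59 (log2 2.20, SE 0.31; edgeR, adjusted p = 3.5e-07) this was the largest estimate among the members. However, the dlg1 interval of 1.59 to 2.80 on the log2 scale met that of cora, 1.36 to 2.28, and also those of scrib, arm and shg. Its partner scrib, a large scaffold protein of the same module, read 5.06, 11.3 and 12.1 TPM in wild-type and 31.6, 40.2 and 49.0 TPM in chinmoST testes. The fold was 3.35 (log2 1.74, SE 0.27; edgeR, adjusted p = 1.6e-06). Both means were higher at the last age, going from 37.8 ± 11.0 to 46.0 ± 8.49 TPM for dlg1 and from 37.3 ± 5.50 to 44.6 ± 6.03 TPM for scrib between days 9 and 11 (SD, n = 3), which is within the spread of the libraries.

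The genes of the septate junction and lateral membrane rose as well. For cora, which encodes a FERM-domain protein of the septate junction, wild-type libraries of days 9 and 11 read 10.2, 12.5 and 13.7 TPM and chinmoST libraries 43.7, 46.9 and 72.9 TPM. The fold was 3.53 (log2 1.82, SE 0.23; edgeR, adjusted p = 7.5e-08). The adhesion protein Neuroglian, encoded by Nrg, has immunoglobulin domains and binds ankyrin: its gene read 17.8, 21.5 and 22.8 TPM in wild-type and 44.5, 54.4 and 59.0 TPM in chinmoST testes. Its fold was 2.17 (log2 1.12, SE 0.09; edgeR, adjusted p = 2.7e-11). On day 3 the chinmoST values of Nrg, 17.4 to 18.0 TPM, were within the wild-type range of 16.3 to 24.1 TPM, and by day 7 they stood above it at 34.9 to 49.8 TPM against 14.5 to 22.8 TPM.

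Fas3 encodes a homophilic adhesion protein that is widely used to mark hub cells and early follicle cells. In wild-type testes of days 9 and 11 it had a lowest value of 14.95, a median of 24.8 and a highest of 26.3 TPM. The chinmoST libraries had 41.3, 44.5 and 60.7 TPM. The fold was 1.73 (log2 0.79, SE 0.15; edgeR, adjusted p = 4e-05), the smallest estimate of the 10 in this comparison. On day 1 all 3 chinmoST libraries, at 16.6, 17.4 and 19.1 TPM, were below the 3 wild-type ones, at 21.3, 24.0 and 26.4 TPM, a difference that did not pass the test (log2 -0.28, SE 0.22; edgeR, adjusted p = 0.58). The mean in chinmoST testes was 54.1 ± 8.45 TPM on day 9 and 42.9 ± 1.56 TPM on day 11 (SD, n = 3), and on day 11 the fold over wild-type was 1.48, just under the threshold. A lower mean on day 11 than on day 9 was also seen for cora, at 45.9 ± 1.94 against 63.3 ± 16.2 TPM, and for arm, at 146 ± 9.34 against 172 ± 26.3 TPM. The means of alpha-Cat, at 66.7 against 67.4 TPM, and pyd, at 23.2 against 23.4 TPM, were nearly level. Those of shg, dlg1 and scrib were higher on day 11, at 35.0 against 30.3 TPM for shg. Day 11 against day 9 within chinmoST testes was tested after these values were seen, and 0 of 10 members were called in either direction (edgeR's quasi-likelihood test; 0 at an unadjusted p under 0.05, and 0 with DESeq2). Of all genes 2.91% were called higher and 4.08% lower in that comparison. Without replicate 1 of every group 1 member, cora, was called lower, at -0.60 on the log2 scale.

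The membrane skeleton gene beta-Spec, whose product lines the lateral membrane together with alpha-Spectrin, read 10.7, 27.0 and 30.1 TPM in wild-type and 48.7, 55.7 and 66.4 TPM in chinmoST testes of days 9 and 11. The fold was 1.95 (log2 0.97, SE 0.24; edgeR, adjusted p = 0.00067). Its chinmoST values on day 5, 32.2 to 36.2 TPM, were above the 3 wild-type values of 6.94 to 24.8 TPM, the lowest of which came from a library low for long genes.

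By age, the number of members called higher went from 0 of 10 on day 1 to 1 on day 3, 4 on day 5, 9 on day 7, 10 on day 9 and 8 on day 11. The background of genes called higher on those days was 2.22%, 6.59%, 12.7%, 27.8%, 30.3% and 32.1%. No member was called lower on any day. On day 1, edgeR's quasi-likelihood test gave 1 member at an unadjusted p under 0.05, alpha-Cat, and DESeq2 called 1. The 2 members not called on day 11 were Fas3 and beta-Spec (adjusted p = 0.054 in edgeR for beta-Spec). Averaged over days 3 and 5, 7 of 10 were called higher against a background of 12.6%. That count dropped to 2, dlg1 and cora, without the libraries low for long genes, since 2 of the 6 wild-type libraries of those days are among them, and to 4 when only those days entered the fit. Leaving out replicate 1, 2 or 3 of every group gave 4, 6 and 2 over days 3 and 5, and 5, 2 and 2 on day 5. The count of day 5 was also 2 without the libraries low for long genes or with the gene length trend of each library removed, 0 when only the groups compared entered the fit and 8 with a replicate block. That of day 3 was 3 with DESeq2 or the trend removed and 4 with the block.

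Over the mean of all 6 days 8 of 10 members were called higher, against 24.2% of all genes, and the other 2, Fas3 and Nrg, passed the adjusted p with folds of 1.38 and 1.41. The log2 differences ran from 0.46 for Fas3 to 1.49 for dlg1, with a median of 0.80 over the members and 0.02 over all genes. With the length trend removed 2 of 10, dlg1 and cora, were called, and Nrg stood at -0.063.

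The genotype difference itself grew between day 1 and day 11 for 7 of the 10, where 28% of all genes were called for growth in this direction. On the log2 scale the difference was larger at day 11 by 1.90 for dlg1 (SE 0.60; edgeR, adjusted p = 0.0091), 1.74 for scrib (SE 0.53; 0.0069), 1.37 for cora (SE 0.46; 0.013) and 1.37 for arm (SE 0.21; 4.2e-06). It was larger by 1.29 for shg (SE 0.43; edgeR, adjusted p = 0.013), 1.28 for Nrg (SE 0.19; 2.5e-06) and 0.84 for Fas3 (SE 0.31; 0.022). For pyd, beta-Spec and alpha-Cat, at 0.74, 0.49 and 0.42, the growth did not pass the test, which does not show that their difference stayed constant. Leaving out replicate 1, 2 or 3 of every group gave 9, 3 and 2 members called. With the length trend removed 2 were called, dlg1 at 0.95 and scrib at 0.77, and beta-Spec turned from 0.49 to -0.49 (edgeR, adjusted p = 0.026), under the fold of 1.5.

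How much of these values goes with gene length was measured by removing, from each library, its smoothed trend over gene length. After that step 4 of 10 members were called higher at days 9 and 11: dlg1 at a log2 difference of 1.33, cora at 1.04, arm at 0.88 and scrib at 0.82. The values of shg and alpha-Cat were 0.49 and 0.23, with adjusted p of 4.1e-05 and 0.03 in edgeR, under the fold of 1.5. Those of Nrg, Fas3, beta-Spec and pyd were 0.23, 0.11, 0.04 and 0.03 and did not pass the test. Because long genes as a class were high in every old chinmoST testis, this step also removes any difference that long genes share with genotype, and the 2 cannot be told apart. Without the 13 libraries low for long genes all 10 stayed called, with log2 differences from 0.73 for Fas3 to 2.10 for dlg1.

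**Figure D2:**
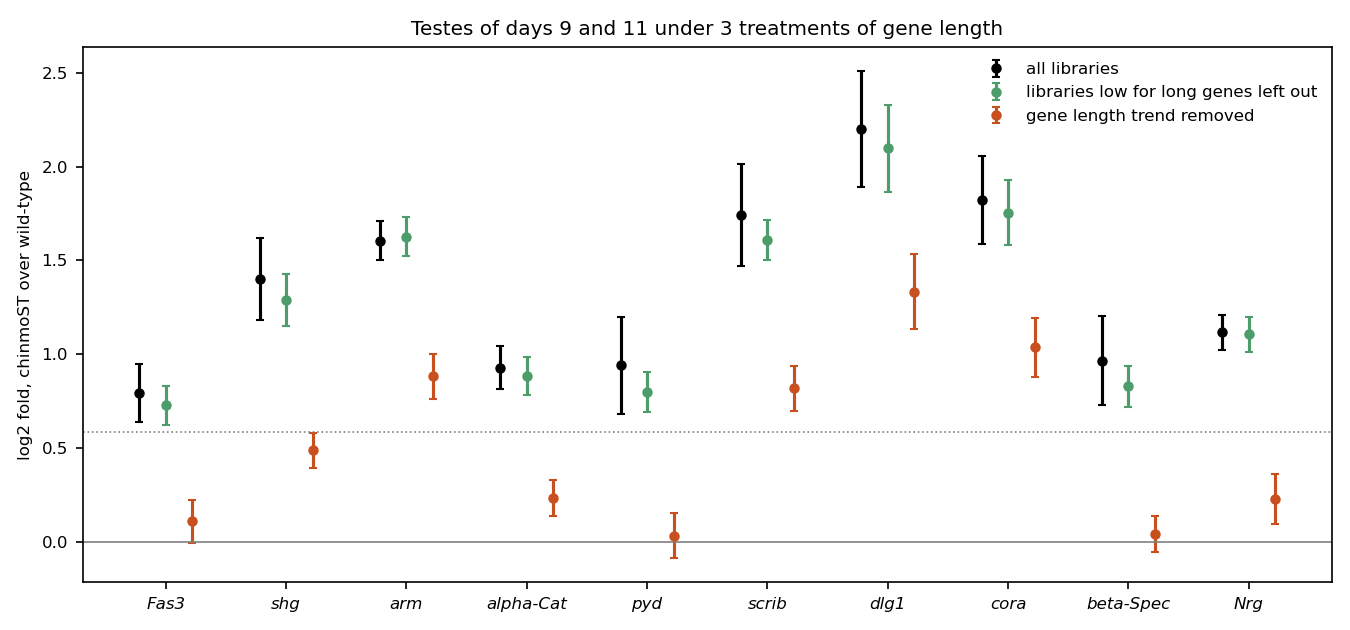
Log2 fold of chinmoST over wild-type testes at days 9 and 11 for each gene (points, with bars of 1 SE) in all libraries, with the libraries low for long genes left out, and with the gene length trend of each library removed. Past the dotted line at the fold of 1.5, only dlg1, cora, arm and scrib remain once the trend is removed, at 1.33, 1.04, 0.88 and 0.82.

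Other cell types moved in the same libraries. Between wild-type and chinmoST testes of days 9 and 11 the summed level of 7 spermatid genes went from 1314 to 1937 TPM down to 727 to 1016 TPM, with all 7 called lower. The 4 matched early germ cell genes went from 27.9 to 33.9 up to 187 to 284 TPM, with 4 of 4 called higher. Of 5 follicle stem cell and follicle regulators all 5 were higher, at 290.3 to 401 against 1191 to 2485 TPM. Most of that sum was Arc1, at 1016 to 2190 TPM in the chinmoST testes, where slbo read at most 0.11 TPM. In wild-type ovaries the same list summed to 74.2 to 457 TPM, a range that holds the wild-type testes, so its sum does not set ovary apart from testis. Of 6 cyst stem cell and early cyst genes 5 were higher, at 42.1 to 45.9 against 106 to 150.1 TPM. Egg shell and yolk genes, the products of mature follicle cells, were higher for 6 of 7 tested but summed to only 11.3 to 93.0 TPM, against 4216 to 53739 TPM in wild-type ovaries. The part of these shifts in the junction gene values was not tested.

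The remaining marker lists were mixed. Muscle sheath genes were higher for 4 of 4, and their sum of 184 to 211 TPM in chinmoST testes of day 1 lay within the 140.3 to 249 TPM of days 9 and 11. Of the hub list 3 of 4 were higher and 1 lower, of the later cyst list 2 of 5 higher and 1 lower, and of the spermatocyte list 5 of 6 lower. Of 2 pigment cell, 2 hemocyte and 2 male gonad epithelium genes 1 each was higher. The male gonad epithelium genes were abundant and summed to 33912 to 60128 TPM in wild-type testes of days 9 and 11. In chinmoST testes they summed to 66129 to 97922 TPM on those days and to 8006 to 33788 TPM on day 1. The part of this epithelium in the junction gene values was not tested. Of 3 neuronal genes 2 were higher and 1 lower, of 3 fat body genes 2 were lower, of 3 terminal epithelium genes 1 was lower, and of 5 accessory gland genes 0 were called in edgeR's test (0 at an unadjusted p under 0.05).

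A wider list of 32 genes of the same structures, 31 of which were matched, was read in the same fits. At days 9 and 11, 26 of the 31 were called higher and 1 lower in chinmoST testes, with a median log2 difference of 1.25, beside 34.1% and 31.4% of all genes. With the 13 libraries low for long genes left out the count was 24, and with the length trend removed it was 15 higher and 2 lower. On day 1, 0 of 31 were called in either direction (edgeR's quasi-likelihood test, 0 at an unadjusted p under 0.05, and 0 with DESeq2). Over the mean of days 19 of 31 were higher and 0 lower, beside 24.2% of all genes called higher, and with the length trend removed 13 were higher and 1 lower. The 19 were 7 of 10 adherens and apical genes, 9 of 17 septate junction genes, all 3 spectrin and ankyrin genes and not the single basolateral gene, l(2)gl. The largest rises were those of bou at a log2 difference of 1.33 (SE 0.13; edgeR, adjusted p = 8.05e-10), ed at 1.33 (SE 0.09; 7.15e-13) and Lac at 1.28 (SE 0.10; 4.09e-12). The bou product is a small Ly6-type protein needed to form septate junctions, Echinoid, encoded by ed, is an adhesion protein of the adherens junction, and Lachesin, encoded by Lac, is an immunoglobulin-domain protein of the septate junction. The exception at the late ages was nrv2, a beta subunit of the sodium pump that is part of the septate junction, at -1.11 (SE 0.21) over days 9 and 11, a fall. In chinmoST ovaries 0 of the 31 were called higher and 6 lower over the mean of days, beside 14.3% and 13.8% of all genes (edgeR, 17 at an unadjusted p under 0.05, and 1 higher and 5 lower with DESeq2). Without the libraries low for long genes 0 were called there in either direction.

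Across the 36 testis libraries the members rose and fell largely together. Pearson's r of log2(CPM + 1), where CPM is the count scaled to a common library total, was between 0.62 for Nrg with beta-Spec and 0.98 for dlg1 with cora over the 45 pairs of members, with a median of 0.87. These libraries share genotype, age and the long-gene trend, so r is given as a description. The 5 genes most like Fas3 by this measure, of 14909, were Gdap2, dl, Mmp2, moody and Baldspot, with r of 0.973, 0.971, 0.969, 0.966 and 0.965. The moody gene, for example, read 7.83 to 16.6 TPM in wild-type and 35.4 to 63.1 TPM in chinmoST testes of days 9 and 11. The best placed of the other members was cora, at rank 117 with r of 0.91, followed by scrib at rank 335 and dlg1 at rank 380. The lowest placed was alpha-Cat, at rank 2566 with r of 0.70.

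The ovary gives the level of the same genes in a gonad with a follicular epithelium. In the 10 wild-type ovary libraries that were not low for long genes, arm was again highest, at 224, 279 and 329 TPM (lowest, median and highest). Next came alpha-Cat, dlg1, scrib, pyd and shg, with medians of 91.4, 84.7, 70.4, 66.5 and 55.3 TPM and neighbouring ranges that overlapped. At the lower end stood Nrg at 34.1, cora at 31.2, beta-Spec at 21.3 and Fas3 at 18.6 TPM in the median. The order thus differed between the gonads: dlg1 was the lowest of the 10 in wild-type testes and the third in wild-type ovaries, where its 10 values of 57.6 to 99.8 TPM did not meet the 5.85 to 9.86 TPM of testes. Fas3 and beta-Spec were the only members whose median was lower in ovaries than in testes, at 18.6 against 26.0 and 21.3 against 26.9 TPM.

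In the count test of wild-type ovary against testis, whose scale depends on how both tissues are normalised, 7 members were called higher in the ovary and 1, Fas3, lower, where 39.6% of all genes were called higher and 49.1% lower. The log2 differences were 2.90 for dlg1 (SE 0.20; edgeR, adjusted p = 2.78e-13), 2.89 for arm (SE 0.10; 5.26e-19), 2.45 for scrib (SE 0.18; 1.57e-12), 2.12 for shg and 2.04 for pyd. They were 1.24 for alpha-Cat, 0.69 for cora, 0.42 for Nrg, -0.40 for beta-Spec and -0.83 for Fas3. The median of all genes was -0.60 in this fit and -1.81 with the size factors of DESeq2, so these values shift together with the scaling. Under DESeq2 the sign of cora and Nrg turned, to -0.51 and -0.78, and alpha-Cat stood at 0.05, whereas relative to the median gene arm stood at 3.49 and 3.48 and Fas3 at -0.23 and -0.22 in the 2 scalings. All genes split into 5931 higher and 7367 lower in edgeR, and into 3888 and 8974 with DESeq2. Leaving out replicate 1 of every group also turned cora and Nrg, to -0.54 and -0.42, and leaving out replicate 3 turned Nrg to -0.14. For dlg1, arm, scrib, shg and pyd the ovary was higher under every alternative run.

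Old chinmoST testes and wild-type ovaries differed gene by gene. At days 9 and 11 the ovary comparison rests on 5 wild-type libraries, of which both day 11 libraries were low for long genes, so the 3 libraries of day 9 are given here. In those Fas3 read 12.7, 13.4 and 24.9 TPM, below every chinmoST testis of days 9 and 11 (41.3 to 60.7 TPM), and beta-Spec read 20.01, 21.5 and 25.3 TPM against 48.7 to 66.4 TPM. In both genes the old chinmoST testis was therefore higher than either wild-type gonad. For cora the day 9 ovaries read 23.4 to 36.5 TPM against 43.7 to 72.9 TPM, and for Nrg 31.4 to 41.8 against 44.5 to 59.0 TPM.

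The other 6 read higher in the wild-type ovaries of day 9 than in the old chinmoST testes. How many of all genes part in this way was not computed, for these genes or for those above. For arm, the ovaries of day 9 at 282 to 295 TPM were above the 140.3 to 199.5 TPM of chinmoST testes, and for pyd 67.1 to 68.8 TPM stood above 19.1 to 26.5 TPM. The ovary was also higher for shg, at 58.9 to 62.1 against 23.1 to 39.0 TPM, for scrib, at 70.2 to 77.5 against 31.6 to 49.0 TPM, and for dlg1, at 77.5 to 87.4 against 25.8 to 53.8 TPM. For alpha-Cat the ovary range of 89.2 to 127 TPM lay above the 56.2 to 78.0 TPM of chinmoST testes.

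**Figure D3:**
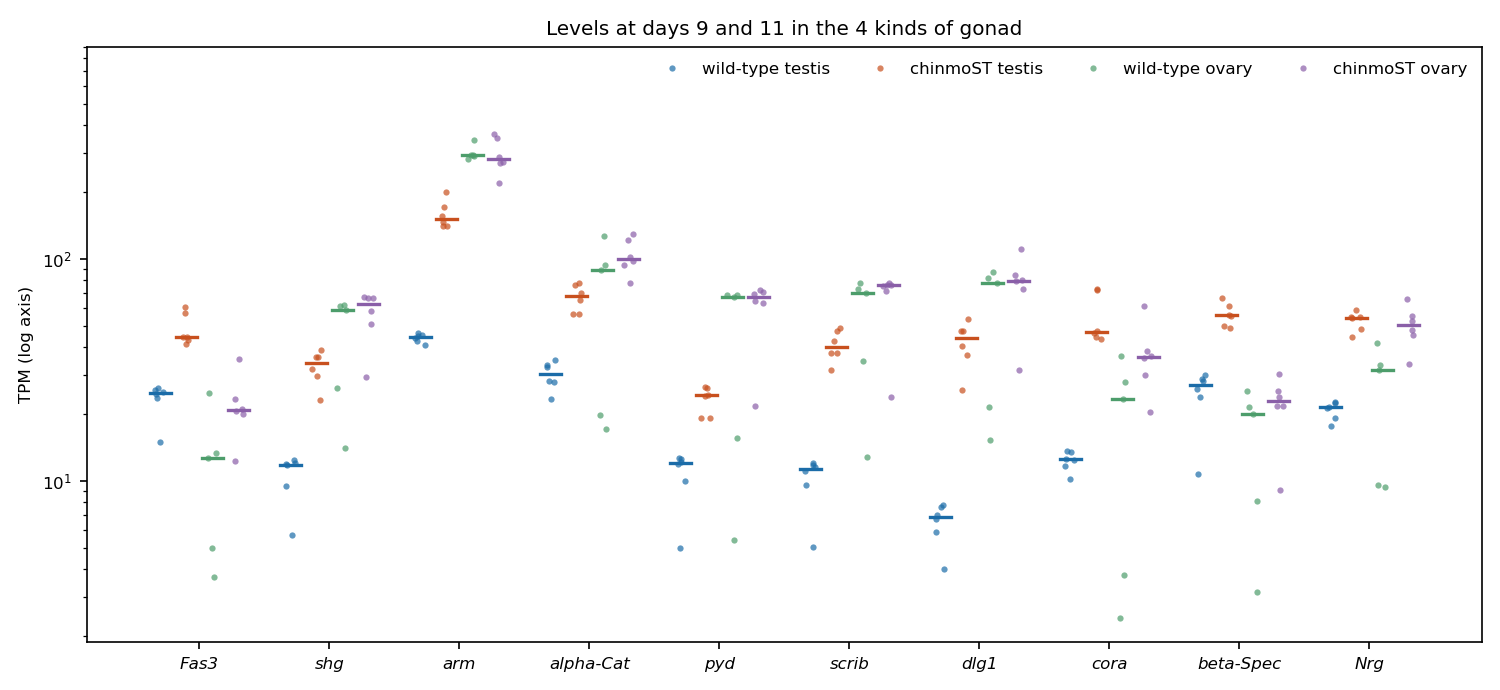
Level in TPM (log axis) of each gene at days 9 and 11 in wild-type testes (6 libraries), chinmoST testes (6), wild-type ovaries (5) and chinmoST ovaries (6), with 1 point per library and a line at the median. By median Fas3, beta-Spec, cora and Nrg are highest in chinmoST testes, and arm, shg, alpha-Cat, pyd, scrib and dlg1 in ovaries. The lowest ovary points of most genes are libraries low for long genes.

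In the count test over both days, chinmoST testes were higher than wild-type ovaries for 4 members, Fas3, cora, beta-Spec and Nrg, and lower for arm, where 52.8% of all genes were called higher and 29.5% lower and the median of all genes was 1.40. Fas3 stood at 2.23 (SE 0.26; edgeR, adjusted p = 7.22e-11) and arm at -1.20 (SE 0.14; 4.75e-11) on the log2 scale. Without the 13 libraries low for long genes, which leaves day 9 alone, shg, arm, pyd, scrib and dlg1 were all called lower, at -0.89, -0.63, -1.52, -0.86 and -0.95, and alpha-Cat turned from 0.37 to -0.50. The comparisons of old chinmoST testes with wild-type testes and of wild-type ovaries with wild-type testes share the wild-type testis libraries, so their values stand side by side here and no likeness between them was computed.

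In ovaries, which have no cyst lineage, the number of members called between genotypes depended on the libraries used. Over the mean of days 3 of 10 members were called higher in chinmoST ovaries, where 14.3% of 11478 genes were: cora at 0.89 (SE 0.25; edgeR, adjusted p = 0.0074), Nrg at 0.71 (SE 0.14; 0.00053) and Fas3 at 0.65 (SE 0.18; 0.0074). Wild-type ovaries had more of the libraries low for long genes, 5 of 15 against 3 of 18, and without them 0 members were called, with values of 0.42 for cora, 0.53 for Nrg and 0.42 for Fas3. At that setting cora, Nrg and beta-Spec (0.34) still passed the adjusted p in edgeR, at 0.0138, 0.000304 and 0.00265, below the fold of 1.5. Leaving out replicate 1, 2 or 3 of every group gave 7, 1 and 1 members called. In the libraries not low for long genes Nrg read 26.9, 34.1 and 43.1 TPM (lowest, median and highest) in wild-type and 45.5, 52.7 and 65.9 TPM in chinmoST ovaries, which did not overlap. Over all ovary libraries Nrg did overlap, at 8.95 to 43.1 against 14.35 to 65.9 TPM. The share of all genes that part in this way was not computed. Without the libraries low for long genes arm overlapped, at 224 to 329 against 205 to 377.5 TPM. Its log2 difference over all ovary libraries was -0.11, with an interval of -0.30 to 0.08.

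The genotype difference was larger in testes than in ovaries for 3 of the 10, where 17.8% of all genes were called in that direction. The difference between the tissues was 0.97 for arm (SE 0.11; edgeR, adjusted p = 4.44e-10), 0.96 for dlg1 (SE 0.24; 0.00084) and 0.86 for scrib (SE 0.20; 0.00043) on the log2 scale. Without the 13 libraries they stayed called, at 0.66, 0.87 and 0.66. For Fas3 and Nrg the estimates were -0.31 and -0.35 (adjusted p = 0.215 and 0.0389 in edgeR), and neither was called.

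Transcript length gave a readout of isoform use that the level of a gene does not give. The length that RSEM reports for a gene is the mean over its transcripts weighted by their abundance, and it was compared in limma with Benjamini-Hochberg adjustment. The shg gene has 1 transcript and could not be tested. In wild-type testes dlg1 transcripts averaged 5348 ± 131 nt (SD, n = 18) with values of 5133 to 5689 nt, and in wild-type ovaries 4253 ± 240 nt (n = 15) with values of 3737 to 4725 nt, so the sexes did not overlap. The difference was -0.34 on the log2 scale (SE 0.02; limma, adjusted p = 3.1e-13), a change of -21.0% in ovaries. In that comparison 66.9% of 4803 genes passed.

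In chinmoST testes dlg1 transcripts were shorter at the later ages. The 3 libraries read 5380 to 5460 nt on day 1 and 5342 to 5514 nt on day 3, within the wild-type range. They then read 4837 to 5192 nt on day 7, 4381 to 4719 nt on day 9 and 4261 to 4426 nt on day 11. On day 11 all 3 chinmoST testes were thus inside the range of wild-type ovaries and below every wild-type testis. Over the mean of days the difference from wild-type was -0.10 (SE 0.01; limma, adjusted p = 4.5e-07), where 43.6% of 6197 genes passed. Over days 9 and 11, a contrast chosen after the values were seen, it was -0.24 (SE 0.02; limma, adjusted p = 1.8e-09), where 32% of genes passed.

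The length of beta-Spec transcripts also fell between genotypes, in much smaller steps. It was 7812 to 7845 nt in the 18 wild-type testes and 7676 to 7681 nt in the 15 wild-type ovaries. In chinmoST testes it was 7808 to 7820 nt on day 1 and 7729 to 7752 nt on day 9, and on day 11 it was 7747 to 7767 nt, between those groups. The difference was -0.03 (SE 0.00043; limma, adjusted p = 1.4e-24) between ovaries and testes and -0.01 (SE 0.00057; limma, adjusted p = 2.3e-12) between chinmoST and wild-type testes, a change of -0.625%. Transcripts of Nrg were longer in wild-type ovaries than testes, by 7.84% (log2 0.11, SE 0.02; limma, adjusted p = 0.00023), and by 0.572% in chinmoST than wild-type testes (log2 0.01, SE 0.0016; limma, adjusted p = 0.00013). On day 11 they averaged 5264 to 5314 nt in chinmoST and 5179 to 5187 nt in wild-type testes. In wild-type ovaries Nrg transcripts averaged 6037 to 6119 nt on day 11, when both libraries were low for long genes. On days 1 and 9, with no such library, they averaged 5245 to 5304 and 5250 to 5429 nt. The 18 wild-type testes read 5170 to 5222.5 nt. The ovary and testis lengths were not compared without the ovary libraries low for long genes. Over the mean of days 3 of the 9 testable members passed between testis genotypes and 7 of 9 between the wild-type gonads, beside the backgrounds of 43.6% and 66.9% given above.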

How the data were processed

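Poly(A) RNA of pooled gonads was sequenced with paired-end reads on a DNBSEQ instrument. Per the submitters' processing notes the authors used FastQC 0.11.9, Trim Galore 0.6.4, Bowtie2 and RSEM on build dm6, and they deposited for each library the expected count, the TPM (a level per transcript length) and the abundance-weighted transcript length of 17807 genes. Other settings were not given in the sources used here.

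Expected counts as deposited were rounded and fitted in edgeR 4.0.16 (filterByExpr, TMM, quasi-likelihood test, R 4.3.3) with 1 coefficient per genotype, tissue and day, in 36 testis, 33 ovary, 33 wild-type or all 69 libraries. A gene was called at a Benjamini-Hochberg adjusted p under 0.05 over all genes tested and a fold of at least 1.5. Transcript lengths, of genes with at least 10 expected counts in every library, were fitted on the log2 scale in limma 3.58.1. Group spreads are SDs of TPM. The tests were checked on simulated data.

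Alternatives were DESeq2 1.42.0, library size alone, no filter, log2(TPM + 1) and log2(TPM + 0.1) in limma, an effective length offset, removal of each library's lowess trend on gene length (span 0.3), each replicate left out, a replicate block, only the groups compared, and libraries low for long genes left out (13 with r under -0.3, chosen after the data were seen). Same-numbered libraries of the genotypes did not deviate together (mean r 0.02 in testes and -0.01 in ovaries). Members, gene lists and marker lists were chosen with earlier results of these data known. Named genes were the 10 members, chinmo, up to 3 listed junction genes with the largest rise and fall over the mean of days, and the 5 genes most like Fas3. The one exception, nrv2, was named after its value was seen. Gene positions and names came from the Ensembl BDGP6.54 annotation, which holds 17710 of the gene identifiers. The youngest libraries are titled day 0 and labelled day 1, and the label was used. Nothing states that replicates came from separate cultures, so p-values measure the spread between these samples, which may be technical.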

Additional observations from a re-analysis of the deposited data

Results flagged for a closer look

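The difference between chinmoST and wild-type testes changed between day 1 and day 11 for 7 of the 10 genes, by the interaction test in edgeR: on the log2 scale it was larger at day 11 by 1.90 for dlg1, 1.74 for scrib, 1.37 for arm, 1.37 for cora, 1.29 for shg, 1.28 for Nrg and 0.84 for Fas3. Of all genes 28% were called in that direction. With the length trend removed 2 members were called and beta-Spec turned to -0.49, and without replicate 2 or 3 of every group 3 and 2 were called. The genotype difference was also larger in testes than in ovaries, by the test of that difference, for arm by 0.97, for dlg1 by 0.96 and for scrib by 0.86. Groups of 2 or 3 libraries at 1 age were too small to look for single outlying samples within a group. The 13 libraries low for long genes were found against the other libraries of their tissue.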

How the results depend on the processing

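Averaged over days 9 and 11 all 10 genes stayed called higher in chinmoST testes under every alternative run except the removal of the length trend, where 4 were called. That step left 2 over the mean of days, 2 at day 5, 4 at each of days 7, 9 and 11, 2 over days 3 and 5, 2 for the change between days 11 and 1, 1 in ovaries, and 1 at day 1 and 3 at day 3. That step turned Nrg to -0.063 over the mean of days and -0.046 against wild-type ovaries, Fas3 to -0.068 and pyd to -0.055 at day 11, beta-Spec to -0.49 for the change with age, and shg, scrib and beta-Spec to -0.25, -0.51 and -0.056 between ovary genotypes. It gave 1 lower member for testis minus ovary and 5 against wild-type ovaries. The causes were not tested. Without the libraries low for long genes 2 were called at day 5 and 2 over days 3 and 5 (4 or 13 left out), 0 in ovaries, 2 lower in wild-type ovary against testis and 5 lower against wild-type ovaries (13 left out), where alpha-Cat turned to -0.50, and dropping 4 libraries gave 4 shorter transcripts. With only the groups compared 0 were called at day 5 and 4 over days 3 and 5. The replicate block gave 4 at day 3 and 8 at day 5, against 1 and 4. DESeq2 called 1 at day 1, 3 at day 3 and 3 lower in ovary against testis, where cora turned to -0.51 and Nrg to -0.78. No filter called 1 at day 1 and 2 lower in ovary against testis, with Nrg at -0.13, and library size alone called 2 lower there. By adjusted p alone the counts were 1 at day 1, 2 at day 3, 5 in ovaries, 2 lower in ovary against testis and 1 lower for testis minus ovary. TPM with either pseudocount called 7 in ovaries.

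Leaving out each replicate number in turn, members called higher ranged from 0 to 1 at day 1, 0 to 3 at day 3, 2 to 5 at day 5, 2 to 6 over days 3 and 5, 2 to 9 for the change with age and 1 to 7 in ovaries. Members called lower ranged from 1 to 2 in ovary against testis and 0 to 1 for day 11 against day 9. Shorter transcripts ranged from 2 to 4 over the mean of days and 2 to 4 over days 9 and 11, where 1 to 2 were longer. In ovary against testis cora ranged from -0.54 to 0.92 and Nrg from -0.42 to 0.48. The median of all genes at days 9 and 11 shifted by 0.20 with library size alone and by -0.24 with the length trend removed.

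Across the alternatives, genes called lower in chinmoST testes over the mean of days numbered 1473 to 5580 of 3143 as reported, and counts at single ages moved most at day 1 (55 to 847 higher, 331 as reported, and 169 to 932 lower, 504 as reported), day 3 (281 to 1673 higher, 982 as reported) and day 5 (322 to 2671 higher, 1893 as reported, and 484 to 2799 lower, 2255 as reported). For day 11 against day 9 they were 5 to 774 higher (434) and 4 to 1367 lower (609), in ovaries 851 to 2019 higher (1645) and 272 to 2963 lower (1587), and for testis minus ovary 1172 to 3368 lower (2002).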
